A study of Rattus norvegicus with 6 samples.

Results

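Wnt signalling genes were followed in the Achilles tendons of newborn rats, in tissue taken on post-natal day 1 or post-natal day 7. The set was fixed by name and held 43 genes: ligands, their receptors, secreted inhibitors, R-spondins, feedback targets and the transducer beta-catenin. Of these, 37 had a probe set that the platform annotation gives to that gene alone, out of 14217 such genes on the array. Wnt10b, Fzd7, Fzd9, Dkk1, Notum and Rspo2 were not analysed here. Where several probe sets named a gene, the brightest on average across the arrays stood for it.

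Each age had 3 arrays (replicates 1, 2 and 3 of the labels), and each array carried RNA pooled from at least 2 animals, so every p-value measures the spread between 3 pools per age. Strain, sex and exact pool size are not stated in the labels. The values are linear array intensities, which rank arrays for one probe set but cannot be set against those of another. Median intensities lay between 20.5 and 21.1 on the 6 arrays. Probe sets for a bacterial trp transcript, a negative control, read up to 4.76, and a gene whose mean was under 9.51 at both ages, 2 times that reading, is called near the negative control, and nothing is read from its change. Of the defining tendon markers, Scx averaged 749 on day 1 and 812 on day 7, and Tnmd 3518 and 5562. The arrays also carried RNA of neighbouring tissues: 11 measured skeletal muscle markers summed to 48817 to 59437 at day 1 and to 30586 to 43430 at day 7. One array stood apart for skin: 9 epidermis and hair follicle markers summed to 6001 on day 1 replicate 1 and to between 182 and 447 on the other 5 arrays.

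Wnt proteins are secreted, lipid-modified signals. In the canonical branch they bind a Frizzled receptor together with the co-receptor Lrp5 or Lrp6, which stops the destruction of beta-catenin and lets it enter the nucleus with factors of the Tcf/Lef family. Other Wnt proteins act without beta-catenin, on cell polarity, movement and calcium. In musculoskeletal tissue the pathway is known for its part in limb patterning, in bone and cartilage formation and in the choice between fat cell and connective tissue fates.

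Between day 1 and day 7, 1 of the 37 genes passed the test. Wnt5b, a ligand of the branch without beta-catenin, rose 1.92-fold, and no member fell at an adjusted p under 0.05 (limma, Benjamini-Hochberg adjustment over all probe sets). That share was 2.70% of the members, where 5.08% of all 14217 genes passed: 274 (1.93%) were higher and 448 (3.15%) lower, or 352 and 320 after quantile normalization. At an unadjusted p under 0.05, 6 of the 37 members were higher and 4 lower, where 27.6% of all genes were found, 10.6% higher and 17.0% lower. The 3 day 7 arrays lay wholly above the day 1 arrays for 5 members and wholly below them for 5, together 27.0% of members. Of all genes 33.1% were so placed, 14.0% above and 19.1% below. The members below included Sost, which was near the negative control and from whose change nothing is read. The median log2 change, day 7 minus day 1 on the log2(intensity + 1) scale, was 0.035 over the members and -0.014 over all genes. With both directions together, none of these shares was higher than that of the array as a whole.

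The precision differed between members. Wnt16, Sost and Rspo1 were near the negative control, and nothing is read from their intervals. For 27 of the 37, with these included, the 95% interval of the change lay inside a 2-fold difference in either direction. For the other 10 it reached or passed 2-fold: Wnt4, Wnt5b, Fzd6, Lrp4, Dkk3, Sfrp1, Wif1, Rspo3, Lef1 and Apcdd1. Among the 27, Wnt1, Wnt5a, Wnt7a and Wnt10a had means not far above the near-control level of 9.51. At so dim a reading a narrow interval cannot exclude a 2-fold change of the transcript. The spread between pools of one age, as a residual SD on the log2 scale, had a median of 0.25 over the members and 0.17 over all genes. It was over 0.5 for 3 members, Lef1, Rspo3 and Apcdd1, and for 2.93% of all genes.

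**Figure D1:**
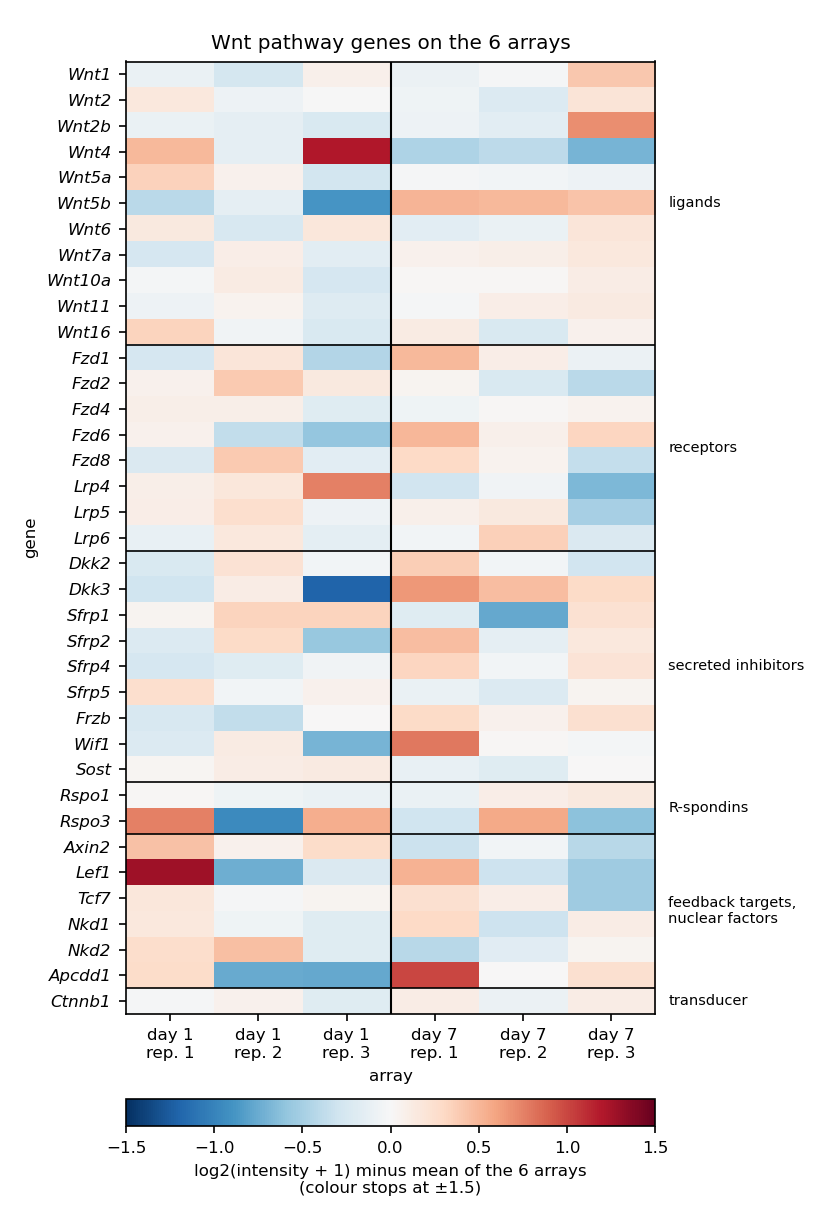
Each row is a Wnt pathway gene and each column an array; colour gives log2(intensity + 1) minus the mean of that gene over the 6 arrays, from blue (lower) to red (higher). Wnt5b is the row with 3 red cells of like strength on day 7, whereas Lef1 and Rspo3 differ more between pools of one age than between the ages.

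**Figure D2:**
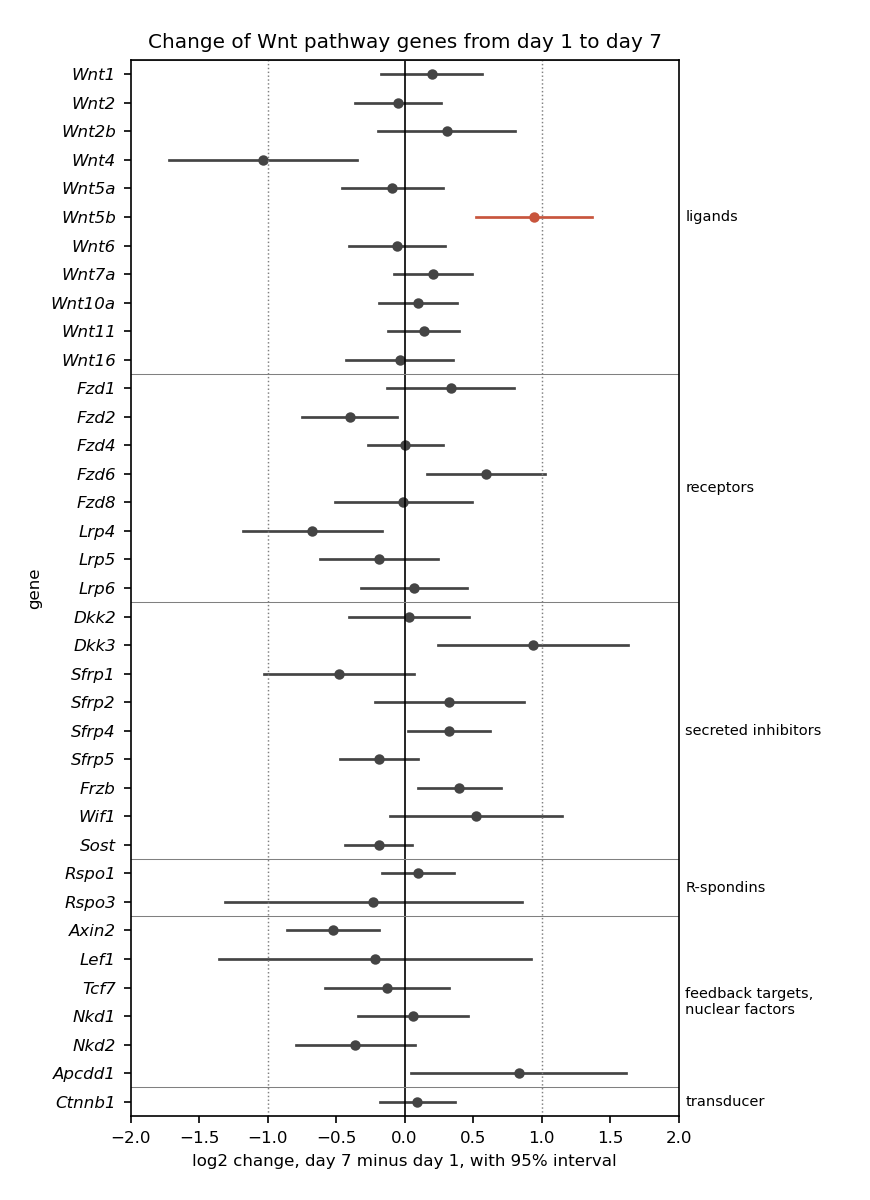
Points are log2 changes, day 7 minus day 1, and bars their 95% intervals from limma (n = 3 arrays per age); dotted lines mark a 2-fold change and the red row passed the adjusted threshold. Wnt5b alone is red, and the intervals of Rspo3 (-1.31 to 0.86) and Lef1 (-1.36 to 0.92) are the broadest.

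Of the 12 ligands 11 were measured, and Wnt5b (probe set 1374970_at) was the member that passed. Its intensity was 123, 149 and 88.2 on day 1 replicates 1, 2 and 3, and 233, 229 and 219 on day 7 replicates 1, 2 and 3. The day 7 pools lay close together and above each day 1 pool. The mean rose from 120.2 ± 30.6 to 227 ± 7.02 (SD, n = 3), a log2 change of 0.94 (SE 0.18; 95% interval 0.52 to 1.37; limma adjusted p = 0.0381). The call was lost without day 1 replicate 1 (log2 change 0.98, adjusted p = 0.116), day 1 replicate 3 (0.74, 0.0634), day 7 replicate 1 (0.93, 0.140), day 7 replicate 2 (0.94, 0.0712) or day 7 replicate 3 (0.97, 0.0926), and kept without day 1 replicate 2 (1.11, 0.0317). It was also lost with a pseudocount of 16 (0.86, 0.0617).

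The array order of Wnt5b, from day 1 replicate 3 at the bottom through day 1 replicates 1 and 2 and day 7 replicates 3 and 2 to day 7 replicate 1 at the top, was also that of the summed tendon markers and of the summed cartilage markers. The 8 measured tendon markers summed to 23567 to 40674 at day 1 and to 42358 to 56071 at day 7. Col1a1 and Col1a2 were the largest terms of that sum. Taken singly, Tnmd, Fmod, Comp, Col1a1 and Col1a2 had the same array order, and Scx, Thbs4 and Tnc did not. The 8 cartilage markers summed to 1051 to 2891 at day 1 and to 2931 to 5492 at day 7. Col2a1, the main cartilage collagen, averaged 812 on day 1 and 1957 on day 7, and Acan, the large cartilage proteoglycan, 143 and 300.03. Col11a2 averaged 814 and 1594, and Col9a2 35.0 and 90.4. The others were dim on day 1: Col9a1 averaged 8.81 and 15.9, Matn1 10.4 and 10.8, Cytl1 11.8 and 31.6, and Hapln1 11.9 and 37.7. Of the list, Col9a2 and Cytl1 passed (limma adjusted p = 0.0377 and 0.0190). Sox9 and Matn3 were not analysed here. Of all genes 199 (1.40%) had this order, and of the members Wnt5b and Dkk3. The part of cartilage or tendon content in the change of Wnt5b was not tested, and in such bulk samples more cells of a type and more RNA per cell cannot be told apart.

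Wnt4, a ligand with roles in kidney, gonad and muscle development, was the other ligand whose ages did not overlap (probe set 1368641_at). It read 34.7, 22.1 and 57.2 on day 1 and 17.4, 18.3 and 14.7 on day 7 (replicates 1, 2 and 3). The day 1 pools were spread over a wide range and the day 7 pools were not. Its log2 change was -1.03 (SE 0.30; 95% interval -1.72 to -0.35), with an adjusted p of 0.0967 in limma, short of the threshold. It passed without day 1 replicate 2 (-1.36, adjusted p = 0.0364). Wnt4 followed the summed skeletal muscle markers in order over all 6 arrays, as did 3.50% of all genes, and all 11 muscle markers had a lower mean on day 7, 5 of them past the threshold. The part of muscle in the values of Wnt4 was not tested.

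**Figure D3:**
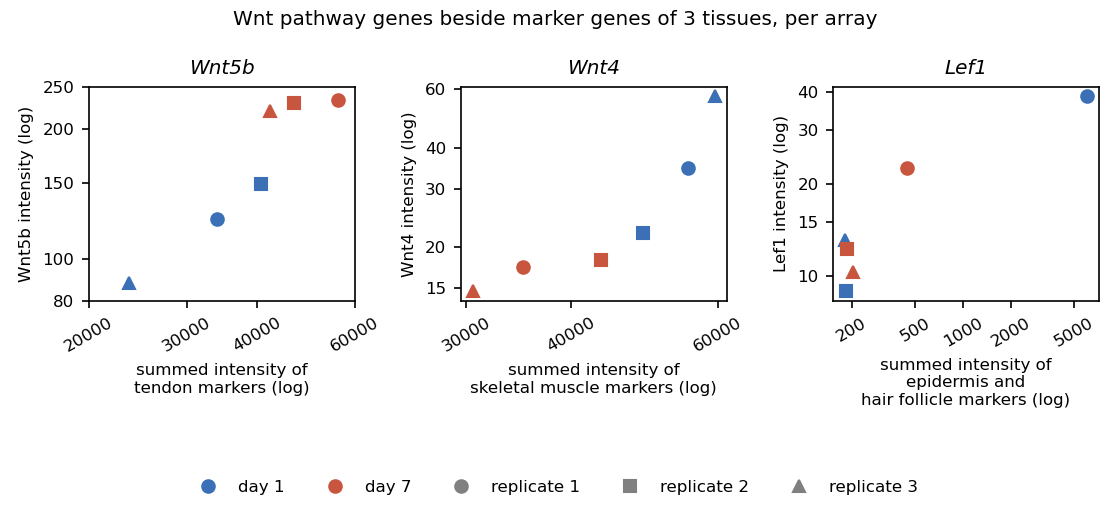
Each point is an array; the horizontal axis is the summed intensity of the tendon, skeletal muscle or epidermis and hair follicle markers and the vertical axis the intensity of Wnt5b, Wnt4 or Lef1, all on log axes, with colour for age and symbol for replicate. Wnt5b and Wnt4 keep the array order of their marker sums, and Lef1 is highest (38.7) on the array where the skin markers sum to 6001.

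The other 9 ligands overlapped between the ages, with log2 changes from -0.090 for Wnt5a to 0.31 for Wnt2b and adjusted p-values from 0.371 to 0.927. Wnt7a had the smallest p of these, with intensities of 8.40, 11.1 and 9.08 on day 1 and 10.7, 10.9 and 11.6 on day 7, a log2 change of 0.21 (SE 0.12; limma adjusted p = 0.371). Its day 1 mean of 9.52 barely cleared the near-control level of 9.51, and day 1 replicates 1 and 3 lay below that level. The dimmer probe set of Wnt7a averaged 7.37 and 7.78, below it at both ages, so little can be read from this change. Wnt5a, the close relative of Wnt5b, read 13.4, 10.8 and 8.32 on day 1 and 10.1, 9.998 and 9.72 on day 7 (limma adjusted p = 0.784). Its means of 10.8 and 9.94 stood just above the near-control level of 9.51, and day 1 replicate 3 lay below that level. Its 95% interval was -0.46 to 0.28, but so dim a reading cannot show whether Wnt5a changed like Wnt5b. The difference between both genes was not tested. Wnt2b, a canonical ligand, stood at 27.9 on day 7 replicate 3 and at 14.2 to 15.9 on the other 5 arrays. Wnt11, which steers cell movement, averaged 25.2 ± 2.28 at day 1 and 27.8 ± 1.61 at day 7 (SD, n = 3). Wnt16, a ligand known from bone and joint, was near the negative control at both ages (6.68 and 6.44). For Wnt2, Wnt6 and Wnt11 a dimmer probe set pointed the other way, and none of those passed (adjusted p = 0.206, 0.373 and 0.844, limma). On the dimmer probe set of Wnt2 the day 7 arrays lay above the day 1 arrays, with a log2 change of 0.31 and an unadjusted limma p of 0.0415, against -0.048 on the brighter one.

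Of the 10 receptors and co-receptors 8 were measured and none passed limma at the adjusted threshold; at an unadjusted p under 0.05, 1 was higher and 2 lower, where 10.6% of all genes were higher and 17.0% lower. Fzd6, a Frizzled receptor with a part in tissue polarity (probe set 1388994_at), read 68.4, 50.6 and 43.4 on day 1 and 93.1, 68.9 and 82.2 on day 7. Each day 7 pool was above each day 1 pool, by a narrow margin between 68.4 and 68.9. The log2 change was 0.59 (SE 0.19; 95% interval 0.16 to 1.03; limma adjusted p = 0.118). Lrp4, which binds sclerostin and is also the agrin receptor of the neuromuscular junction (probe set 1370932_at), read 105, 111 and 167 on day 1 and 80.9, 95.5 and 61.8 on day 7. The day 7 pools were all lower, with a log2 change of -0.67 (SE 0.22; interval -1.18 to -0.17; adjusted p = 0.127). The lowest and the highest array of Lrp4 were also those of the summed muscle markers, and the order of all arrays differed from that of the sums in day 1 replicates 1 and 2 alone, which were the other way round. The part of muscle in the values of Lrp4 was not tested. Fzd2, a receptor of Wnt5a in many tissues (probe set 1398304_at), read 105, 132 and 111 on day 1 and 104, 85.5 and 75.7 on day 7. All 3 day 7 pools were lower, the nearest by little, with a log2 change of -0.40 (SE 0.15; interval -0.75 to -0.054; limma adjusted p = 0.173).

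The remaining receptors overlapped between the ages. Fzd4, the receptor of blood vessel growth, read 277, 277 and 229 on day 1 and 249, 265 and 271 on day 7, with an interval of -0.27 to 0.28 around a log2 change of 0.0062. Fzd8 averaged 229 ± 56.0 at day 1 and 227 ± 51.1 at day 7 (SD, n = 3). The canonical co-receptors Lrp5 and Lrp6 had log2 changes of -0.18 (interval -0.61 to 0.25) and 0.068 (interval -0.32 to 0.45). A 2-fold change lay outside both intervals.

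Of the 11 secreted inhibitors 9 were measured, and none passed (limma); at an unadjusted p under 0.05, 3 were higher and none lower, where all genes had 10.6% higher and 17.0% lower. The 3 were Dkk3, Frzb and Sfrp4, and in each the day 7 arrays lay above the day 1 arrays. Dkk3, a Dickkopf relative that does not act on Lrp5 and Lrp6 like the others (probe set 1370328_at), read 603, 802 and 323 on day 1 and 1169.8, 1029 and 911 on day 7. It averaged 576 ± 241 at day 1 and 1037 ± 129 at day 7 (SD, n = 3), a log2 change of 0.94 (SE 0.30; interval 0.24 to 1.63; limma adjusted p = 0.124). The change was about as large as that of Wnt5b, and the day 1 pools were further apart. It rests on this probe set: the other 3 of the gene were dim, with means of 4.83 to 10.5, and gave log2 changes of 0.072, 0.098 and 0.069, and the mean of all 4 gave 0.29. It was 0.57 without day 1 replicate 3. It had the array order of the tendon and cartilage sums given above.

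Frzb, a secreted decoy for Wnt proteins that was found in cartilage (probe set 1375961_at), read 20.6, 18.7 and 24.4 on day 1 and 30.1, 25.5 and 29.1 on day 7. The log2 change was 0.40 (SE 0.13, interval 0.095 to 0.70, limma adjusted p = 0.131). Its second probe set gave a similar change of 0.37, with ages that overlapped (limma adjusted p = 0.343). Sfrp4, a secreted Frizzled-related decoy (probe set 1368394_at), read 102, 107 and 117.6 on day 1 and 153, 118.4 and 140.3 on day 7, so the lowest day 7 pool and the highest day 1 pool were almost equal. Its log2 change was 0.33 (SE 0.13; limma adjusted p = 0.192).

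The other inhibitors did not share a direction. Sfrp1, a decoy of the same family, had a log2 change of -0.48 (interval -1.02 to 0.069) and Wif1, which binds Wnt proteins through its own domain, one of 0.52 (interval -0.11 to 1.15). Wif1 was higher on day 7 replicate 1 (249) than on the remaining day 7 arrays (145 and 139.7), which lay among the day 1 values of 124, 155 and 87.8. Sfrp2, Sfrp5 and Dkk2 had log2 changes of 0.33, -0.18 and 0.035. Sost, which encodes sclerostin, the inhibitor made by bone cells, was near the negative control, at 6.49 on day 1 and 5.57 on day 7. The bone markers were low on the same arrays: Ibsp averaged 6.18 and 6.03, Dmp1 7.82 and 7.35, and Phex 5.39 and 5.05, and the 6 measured bone markers summed to between 40.7 and 54.2 on each array.

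R-spondins strengthen Wnt signals by keeping Frizzled receptors on the cell surface. Of the 3 named, 2 were measured. Rspo3 (probe set 1396544_at) read 130.0, 38.8 and 112 on day 1 and 61.8, 114 and 49.6 on day 7 (replicates 1, 2 and 3). At each age the pools thus held both high and low values, and the lowest pool of all was from day 1. Its second probe set gave 27.4, 18.1 and 30.7 on day 1 and 19.9, 29.99 and 14.3 on day 7, with the same 3 arrays high. The log2 change of the main probe set was -0.23 (SE 0.47; interval -1.31 to 0.86; limma adjusted p = 0.815), and its residual SD of 0.79 was exceeded by 0.774% of all genes. Its sign turned on leaving out day 1 replicate 1 (0.095) or day 7 replicate 3 (0.022), whereas with both arrays numbered 2 left out it was -1.11 and passed (limma adjusted p = 0.0339). Those arrays were the lowest of day 1 (38.8) and the highest of day 7 (114). Their removal by itself makes the fall larger, so nothing is read from that pass. Rspo1 was near the negative control at both ages (5.12 and 5.57).

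**Figure D4:**
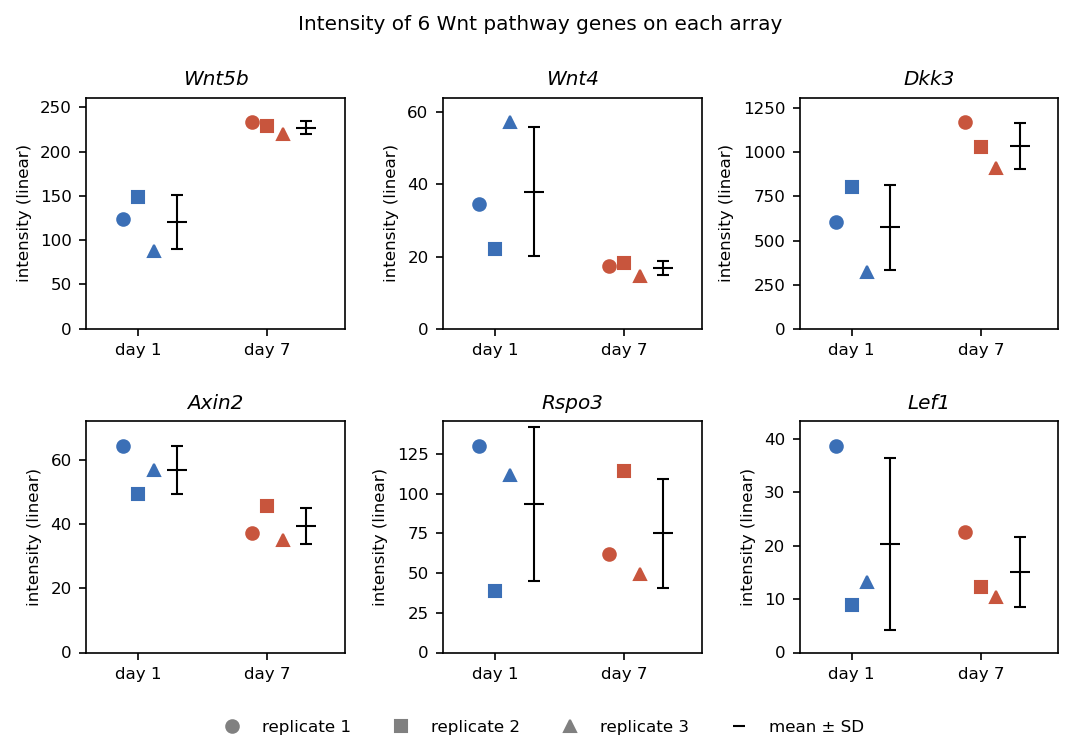
Linear intensity of Wnt5b, Wnt4, Dkk3, Axin2, Rspo3 and Lef1 on each array, with colour for age, symbol for replicate and black bars for mean ± SD (n = 3 per age). The ages are apart for Wnt5b, Wnt4, Dkk3 and Axin2, of which Wnt5b passed the test, and they overlap for Rspo3 and Lef1.

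Axin2, Nkd1, Nkd2, Apcdd1, Lef1 and Tcf7 are read as a gauge of canonical signalling, since several are switched on by beta-catenin and restrain the pathway in turn. None of the 6 passed limma, and at an unadjusted p under 0.05, 1 was higher and 1 lower, where 27.6% of all genes were found. Their promoters are shown because Tcf/Lef proteins are known to bind sequences close to CTTTGAT and CTTTGAA. The windows, from 250 bases before to 50 bases after the annotated start, are RefSeq's for the rat assembly GRCr8. For each gene only the first window listed was used, so any other start of a gene was not searched. Of the 37 members 27 were matched in the table used here, and the other 10, Wnt5b among them, were not analysed for motifs. Both strands were searched for the pair of motifs, which do not overlap one another. At least 1 match stood in 3 of the 27 member promoters (11.1%) and in 8.64% of all 27457 promoters of that length. The 3 were Axin2, Nkd1 and Tcf7, so 3 of the 6 of this class and 0 of the 21 of the other classes. The difference between these small classes was not tested. Capitals mark the matches, and a match is a description of letters and not a measured site.
Axin2, GRCr8 chr10:94398535-94398834, plus strand: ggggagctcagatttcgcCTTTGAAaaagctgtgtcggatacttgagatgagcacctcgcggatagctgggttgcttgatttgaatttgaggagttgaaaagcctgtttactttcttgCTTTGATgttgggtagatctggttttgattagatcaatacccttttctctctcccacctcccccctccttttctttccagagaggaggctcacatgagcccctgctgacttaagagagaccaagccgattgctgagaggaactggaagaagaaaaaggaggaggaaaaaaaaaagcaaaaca
Nkd1, GRCr8 chr19:34722797-34723096, minus strand: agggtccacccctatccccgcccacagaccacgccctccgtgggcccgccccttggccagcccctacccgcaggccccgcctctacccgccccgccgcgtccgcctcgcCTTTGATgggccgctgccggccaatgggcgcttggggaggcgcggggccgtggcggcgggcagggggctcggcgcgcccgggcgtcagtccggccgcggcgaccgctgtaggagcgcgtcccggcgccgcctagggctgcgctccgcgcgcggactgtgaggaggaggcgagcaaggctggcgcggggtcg
Tcf7, GRCr8 chr10:36954230-36954529, minus strand: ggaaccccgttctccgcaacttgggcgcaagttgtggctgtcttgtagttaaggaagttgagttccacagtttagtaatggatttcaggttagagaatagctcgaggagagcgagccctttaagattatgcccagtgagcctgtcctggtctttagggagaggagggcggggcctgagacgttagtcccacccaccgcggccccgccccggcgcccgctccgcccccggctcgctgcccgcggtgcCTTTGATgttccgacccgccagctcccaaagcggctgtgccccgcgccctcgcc

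The Axin2 window held 2 matches, beginning 232 and 132 bases before the start, and its GC content was 45.7%. The Nkd1 match began 141 bases before the start in a window of 79.3% GC, and the Tcf7 match 4 bases before it. The log2 changes of Axin2, Nkd1 and Tcf7 were -0.52, 0.061 and -0.13, and none passed.

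Axin2, a scaffold of the complex that destroys beta-catenin and the most used readout of the pathway (probe set 1387184_at), read 64.2, 49.4 and 56.9 on day 1 and 37.3, 45.6 and 34.9 on day 7. All day 7 pools were lower than all day 1 pools. It averaged 56.8 ± 7.44 at day 1 and 39.3 ± 5.63 at day 7 (SD, n = 3), a log2 change of -0.52 (SE 0.15; interval -0.86 to -0.19), with a limma adjusted p of 0.0909, short of the threshold. With array weights it passed (-0.58, adjusted p = 0.0482). Nkd1 and Nkd2, which inhibit Dishevelled, had log2 changes of 0.061 (interval -0.34 to 0.46) and -0.36 (interval -0.80 to 0.079). Tcf7, a nuclear partner of beta-catenin, had one of -0.13 (interval -0.58 to 0.33).

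Apcdd1, an inhibitor at the cell membrane known from hair follicles (probe set 1385659_at), read 47.3, 22.5 and 22.3 on day 1 and 78.3, 39.0 and 46.1 on day 7. The ages overlapped through day 1 replicate 1, and the log2 change was 0.83 (SE 0.34; interval 0.049 to 1.62; limma adjusted p = 0.203). Lef1, a nuclear partner of beta-catenin that is strong in hair follicles (probe set 1383785_at), read 38.7, 8.93 and 13.2 on day 1 and 22.5, 12.3 and 10.3 on day 7. The highest array at each age was replicate 1. The summed skin markers were highest on the same array of each age. The keratin gene Krt5 read 756 on day 1 replicate 1 and 68.1 on day 7 replicate 1. On the other 4 arrays Krt5 read between 11.4 and 16.2. Krt15 and Dsg1 did not peak on replicate 1 within day 7. Krt15 read 10.2, 11.01 and 10.97 on day 7 replicates 1, 2 and 3, and Dsg1 10.4, 11.6 and 7.90. The summed list stood at 182 to 6001 on day 1 and at 187 to 447 on day 7, and 8 of its 9 markers, all but Dsg1, were highest on day 1 replicate 1. The log2 change of Lef1 was -0.22 with all arrays and 0.36 without day 1 replicate 1, and that of Apcdd1 was 0.83 and 1.18; none of these passed. The part of skin in both genes was not tested.

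Beta-catenin itself, Ctnnb1, is both the transducer of the pathway and a part of cell junctions. Its brightest probe set (1373470_at) read 3096, 3281 and 2762 on day 1 and 3394, 2948 and 3401 on day 7. The ages overlapped, with a log2 change of 0.093 (SE 0.12; interval -0.18 to 0.37; limma adjusted p = 0.689), and its other 3 probe sets had changes of -0.20, 0.16 and 0.030. Transcript level does not report the stability of the protein, through which the pathway acts.

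Of 89 further genes of the pathway, from other ligands and receptors to the cytoplasmic, nuclear and polarity branches, 70 were measured. None was higher and 2 lower at the adjusted threshold in limma (2.86%, against 5.08% of all genes), and 8 were higher and 10 lower at an unadjusted p under 0.05, where 10.6% of all genes were higher and 17.0% lower. Myc, a growth regulator and target of canonical signals among many others, fell from 62.9, 73.6 and 78.2 on day 1 to 44.4, 40.4 and 40.5 on day 7, a log2 change of -0.76 (SE 0.12; limma adjusted p = 0.0240). Camk2b, a calcium-dependent kinase abundant in muscle and nerve, fell from 561, 427 and 626 to 216, 306 and 189, a log2 change of -1.19 (SE 0.21; adjusted p = 0.0309). In both the ages did not overlap. The arrays of Camk2b had the order of the summed muscle markers, and the part of muscle in its fall was not tested. Both calls were lost without day 1 replicate 1 (adjusted p = 0.0563 for Myc and 0.110 for Camk2b, limma), day 1 replicate 3 (0.0696 and 0.0862), day 7 replicate 1 (0.0933 and 0.127) or day 7 replicate 3 (0.0672 and 0.0799). The log2 changes then lay between -0.85 and -0.69 for Myc and between -1.15 and -1.04 for Camk2b, so neither turned. The call of Camk2b was also lost with a pseudocount of 16 (0.0573). That of Myc was also lost with both arrays numbered 2 left out (-0.71, 0.0705). With a block for the replicate number both calls were lost as well.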

How the data were processed

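The 6 arrays, 3 per age, were read from the table of linear intensity values that the authors deposited. Per the submitters' processing notes MAS5 and RMA were used, with no role or version given; which made these intensity values, and how they were scaled, is not stated. After removal of 57 controls from the 31099 probe sets, 31042 were tested, of which 20826 named 1 gene, 436 several and 9780 none here. Values were transformed to log2(intensity + 1) without further normalization or filter and compared with limma 3.58.1 (lmFit and eBayes, R 4.3.3) in a two-sided test, adjusted by Benjamini-Hochberg across the probe sets, with a threshold of 0.05. The code was tested on simulated data. Depth on arrays is signal over background, and the number of arrays limits the precision.

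The members and lists were chosen with earlier results of these data known. Genes named are the members that passed, in each class those with the 3 smallest p-values, and, chosen after their values were seen, others that complete a class; of the further pathway genes those that passed. Marker lists were of tendon, skeletal muscle, fat cells, cartilage, bone, Schwann cells, skin, endothelium and macrophages. Summed over each list, the day 1 and then the day 7 arrays ran from 1526 to 1719 and 2711 to 5406 for fat cell markers, from 1886 to 2226 and 2256 to 8820 for Schwann cell markers, from 1505 to 1962 and 1819 to 2176 for endothelial markers, and from 1614 to 2415 and 1425 to 1776 for macrophage markers. Alternatives were quantile normalization, centred array medians, only probe sets above the median, a pseudocount of 16, averaged probe sets per gene, a robust fit with intensity trend, array weights, a block for the replicate number, each array left out and both arrays numbered 2 left out.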

Additional observations from a re-analysis of the deposited data

How the results depend on the processing

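No member had a direction that changed while it passed the test. The count of members higher on day 7 (1) became 0 with a pseudocount of 16 and with the replicate block, and was 0 to 1 without 1 array; the count lower (0) became 1 with array weights (Axin2), 2 with both arrays numbered 2 left out (Wnt4 and Rspo3), and was 0 to 1 without 1 array. Over all genes, 274 were higher and 448 lower; the higher count was 182 with a pseudocount of 16, 538 with array weights, 25 with the replicate block and 4 to 271 without 1 array, and the lower count 897 with array weights, 8 with the replicate block and 0 to 382 without 1 array. Of the further pathway genes, the lower count (2) was 4 with only probe sets above the median, 5 with the mean of probe sets, 4 with array weights, 0 with the replicate block and 0 to 3 without 1 array, and the higher count (0) was 0 to 1 without 1 array.

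The deviations of same-numbered arrays from their age means correlated at 0.046, -0.25 and -0.14 for numbers 1, 2 and 3. With 3 arrays per age these values cannot show whether the numbers pair the samples, which the labels do not state. Wnt5b under the replicate block had the same log2 change of 0.94 and a limma adjusted p of 0.0838. Signs turned, without a call, for members with changes near 0 and for Rspo3 (-0.23 with all arrays), Lef1 (-0.22), Lrp5 (-0.18) and Tcf7 (-0.13). With quantile normalization Fzd8 stood at 0.095 and Dkk2 at -0.0051, with centred medians Fzd4 at -0.011, with the mean of probe sets Wnt2 at 0.13, Wnt6 at 0.070 and Nkd1 at -0.00089, with array weights Fzd4 at -0.044 and Fzd8 at 0.14, and without both arrays numbered 2 Wnt16 at 0.041 and Fzd8 at 0.16. Without 1 array the log2 changes ran from -0.16 to 0.040 for Wnt2, -0.25 to 0.063 for Wnt5a, -0.18 to 0.018 for Wnt6, -0.16 to 0.12 for Wnt16, -0.086 to 0.052 for Fzd4, -0.16 to 0.18 for Fzd8, -0.31 to 0.021 for Lrp5, -0.093 to 0.19 for Lrp6, -0.14 to 0.19 for Dkk2, -0.76 to 0.095 for Rspo3, -0.64 to 0.36 for Lef1, -0.28 to 0.10 for Tcf7 and -0.071 to 0.23 for Nkd1. The causes were not tested. Signal over background limits Wnt16, Sost and Rspo1, which were near the negative control, so that nothing is read from the signs of Wnt16.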
